A study of Drosophila melanogaster with 2 samples.

Results

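Of 3469 reproducible toe peaks in whole adult male Drosophila melanogaster, 260 (7.49%) had their summit in no annotated gene body and more than 500 bp from every annotated start site. These are called the intergenic peaks. They were chosen by position alone: transposable elements were not counted as genes, and the summit is the base the authors' list gives for each peak. The others were 2289 promoter peaks, within 500 bp of a start site, and 920 intragenic peaks, in a gene body but farther from start sites. Chromatin immunoprecipitation and sequencing had been done on a stable transgenic line carrying toe with green fluorescent protein at its C-terminus, using an antibody to that protein and sonicated chromatin. The flies were adult males of unknown age with no treatment named, in 1 group of 2 biological replicates, numbered 2 and 3. Whole animals were used, so the cell types behind a peak cannot be told apart. Whether the flies kept an untagged toe gene was not stated in the labels. A control experiment named in the labels is not analysed here, so no background from it stands beside these values.

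The transcription factors made by toe (twin of eyegone) and the adjacent gene eyg (eyegone) belong to the Pax family, carry a homeodomain and are known for their part in eye development. Intergenic DNA away from start sites can hold enhancers, which raise transcription of a gene at a distance, and insulators, which limit such contacts. In flies insulators are bound by proteins such as CTCF, a zinc-finger protein, and Su(Hw). GAGA factor binds GA repeats at promoters and enhancers, and homeodomain proteins bind sites built around TAAT.

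Sequences are shown for 4 motifs, each from the highest peaks on 2L, 3L, 3R and X that hold it (some higher peaks on another arm are not shown), since the descriptions that follow turn on which letters lie at the summits. All are from the RefSeq copy of the dm6 assembly, read 5′ to 3′, and none comes from sequence read in the flies. The motifs were searched on both strands, and a match is a description of letters, not evidence of a bound site. Each line of the CTCF set is cut on the strand that reads the motif AGNNGGCGC, here called the CTCF core because it is the centre of the known CTCF motif; capitals mark a single match even where the peak holds more. These lines were chosen after the values had been seen. The peak upstream of jp is shown on the minus strand of chr2L:9567458-9567518, the peak near soti on the minus strand of chr3R:14391422-14391482, and the peak near Sid on the plus strand of chr3R:28672370-28672430. The peak upstream of CG15282 is on the minus strand of chr2L:14706312-14706372, that of Sox21a on the plus strand of chr3L:14111618-14111678, and that of CG10232 on the plus strand of chr3R:23722141-23722201.
jp: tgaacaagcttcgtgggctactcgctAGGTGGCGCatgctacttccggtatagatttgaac
near soti: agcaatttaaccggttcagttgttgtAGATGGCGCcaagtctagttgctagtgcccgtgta
Sid: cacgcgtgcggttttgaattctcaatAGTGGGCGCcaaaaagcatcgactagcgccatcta
CG15282: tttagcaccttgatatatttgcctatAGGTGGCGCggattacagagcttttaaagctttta
Sox21a: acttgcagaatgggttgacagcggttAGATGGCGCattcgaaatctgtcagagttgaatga
CG10232: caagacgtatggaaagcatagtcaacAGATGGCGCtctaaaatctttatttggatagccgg

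The word ACAGTGG, in capitals, is shown in the highest intergenic peaks on those arms that hold it. They lie upstream of lncRNA:CR45054 (minus strand of chr3R:10082748-10082806), lncRNA:CR45643 (minus strand of chr3R:16222555-16222613), nrv1 (plus strand of chr2L:6787536-6787594) and Cyt-c1L (minus strand of chr3R:29207511-29207569). Both long non-coding RNA lines run ACAGTGGtccct from the word onwards, whereas the nrv1 and Cyt-c1L lines differ from them directly after it.
lncRNA:CR45054: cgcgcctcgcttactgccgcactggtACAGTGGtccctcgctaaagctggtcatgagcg
lncRNA:CR45643: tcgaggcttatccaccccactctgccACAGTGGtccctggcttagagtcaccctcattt
nrv1: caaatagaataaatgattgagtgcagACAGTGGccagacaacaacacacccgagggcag
Cyt-c1L: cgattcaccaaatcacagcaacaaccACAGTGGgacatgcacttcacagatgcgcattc

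The GA repeat GAGAGA and the homeodomain core TAATTA are shown, in capitals, in the highest peaks on the same arms that hold each. The GAGAGA lines are an upstream CG43245 peak (minus strand of chr3L:10756313-10756370) and the CG6149 peak (minus strand of chr3L:11431395-11431452). The TAATTA lines are the Cyt-c1L peak (plus strand of chr3R:29207558-29207615) and a downstream CG43245 peak (plus strand of chr3L:10776493-10776550).
CG43245: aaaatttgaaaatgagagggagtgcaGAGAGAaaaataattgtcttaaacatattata
CG6149: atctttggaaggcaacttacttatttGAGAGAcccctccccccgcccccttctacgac
Cyt-c1L: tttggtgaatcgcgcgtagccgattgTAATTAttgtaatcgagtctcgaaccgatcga
CG43245 downstream: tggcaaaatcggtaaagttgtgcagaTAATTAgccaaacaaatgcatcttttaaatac

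Summit sequences of the highest peak and of the highest peak on X were added, after the values had been seen, to show what lies under peaks with neither the CTCF core nor ACAGTGG. The highest of all, near CG31668, is shown over chr2L:2202359-2202459 on the plus strand, with 2 matches to the TATA word TATAAA in capitals, which on this strand reads TTTATA. The peak upstream of CG14621 is shown over chrX:22433049-22433149 on the plus strand. It has no capitals because it held none of the 18 motifs searched, and it is made almost wholly of the repeated letters ttctat and their variants.
CG31668: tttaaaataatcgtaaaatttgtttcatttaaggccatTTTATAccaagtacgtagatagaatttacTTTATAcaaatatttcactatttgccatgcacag
CG14621: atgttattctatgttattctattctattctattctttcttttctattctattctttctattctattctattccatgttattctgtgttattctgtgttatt

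The intergenic peaks were mostly modest in signal, the value the authors deposited for each peak, on a scale no header or label names. Their signal ran from 58.4 to 816, with a median of 83.0 and quartiles of 69.4 and 118. The median was 86.1 at intragenic peaks and 115 at promoter peaks, so the intergenic and intragenic medians were close and the promoter median higher. Of the intergenic peaks, 17 (6.54%, 95% Wilson interval 4.12 to 10.2) stood among the 347 strongest reproducible peaks, which make up 10% of all peaks. These intervals, here and in the rest of the text, cover the counting of peaks only, and overlapping peaks were each counted. With a single group no test across samples could be run, so shares are set beside those of other peaks and of the genome, with no p-value.

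The share of peaks that were intergenic rose towards the weak end of the list. It was 4.90% (95% Wilson interval 3.08 to 7.70) among the 347 strongest peaks, 1.44% (0.617 to 3.33) among the next 347 and 10.98% (8.11 to 14.7) among the 346 weakest. Among regions of the pooled list below the reproducible ones it was 21.1% down to rank 10000, 30.1% in the 10000 regions after that and 31.9% in the last 10000. For scale, 28.3% of windows of 100 bp either side of a midpoint, tiled over the genome, met the same positional rule. The list's lowest regions, which per the files' notes hold background as well as peaks, were thus intergenic about as often as the genome itself.

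**Figure D1:**
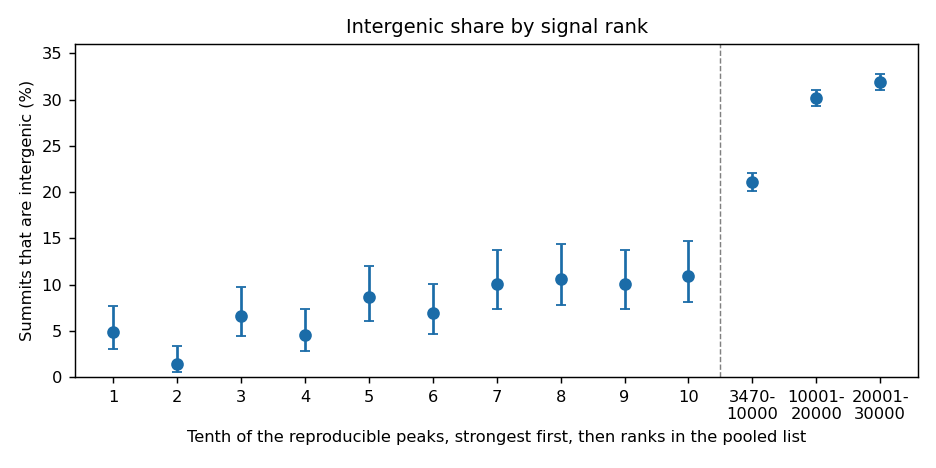
Percent of regions that were intergenic (vertical axis) by rank of signal (horizontal axis), from the strongest reproducible peaks to the weakest ranks of the pooled list, in bins of 346 or 347 peaks and then of up to 10000 regions; bars on points are 95% Wilson intervals. The share goes from 4.90% in the strongest bin to 31.9% in the last.

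The replicates ranked the intergenic peaks less alike than they ranked promoter peaks. A region of replicate 2 lay over 256 of the 260 summits and a region of replicate 3 over 251. Across the 247 intergenic peaks with a region in both lists, signal correlated between replicates with Pearson's r 0.72 on the log scale and Spearman's rho 0.53, a description across peaks that share both libraries. The same values were 0.73 and 0.59 across 888 intragenic peaks and 0.80 and 0.77 across 2188 promoter peaks. All these peaks had been kept by the authors as reproducible between the same replicates, and a region in both lists was then required. These values are therefore not an independent measure of replicate agreement. Promoter peaks also reached a higher signal (3278, beside 816 at intergenic peaks). How far that wider range raised their correlation was not tested.

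Intergenic peaks, like intragenic ones, were strong in both replicates less often than the list as a whole, which is mostly promoter peaks. A q-value under 0.05 in the reproducible list was given to 214 intergenic peaks (82.3%), beside 86.8% of all peaks and 80.2% of intragenic peaks. It was given to 198 (76.2%, interval 70.6 to 80.9) in replicate 2, beside 83.3% of all and 74.6% of intragenic peaks, and to 139 (53.5%, interval 47.4 to 59.4) in replicate 3, beside 64.2% and 56.4%. Each replicate list holds 30000 regions, and 136 intergenic peaks (52.3%, interval 46.2 to 58.3) were among the strongest 3469 of both, beside 67% of all peaks and 58.4% of intragenic peaks (interval 55.2 to 61.5, which overlaps). Replicate 2 placed 200 there (76.9%, beside 83.8% of all peaks) and replicate 3 placed 179 (68.8%, beside 78.8%). In neither set were 17 intergenic peaks, beside 67 of 920 intragenic peaks and 150 of all 3469 peaks. The median ratio of replicate 3 to replicate 2 was -0.44 on the log2 scale at intergenic peaks and -0.44 at all peaks, so the lists' scales differ and levels are compared only within a list.

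The 20 highest intergenic peaks ranked high in both replicates, which their choice by pooled signal favours. At intergenic peaks the pooled signal was close to the sum of both replicates' signals (median ratio 1.01, quartiles 0.982 and 1.03). All 20 were among the strongest 3469 regions of each replicate, with no rank worse than 805 in replicate 2 or 596 in replicate 3. Their signal ran from 213 to 816, and their ranks among all reproducible peaks from 31 to 638. Of these peaks 10 lay within 2000 bp of a start site, 5 had a non-coding RNA as nearest gene and 1 was on X.

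The highest intergenic peak lay at chr2L:2202237-2202604, between COX7AL2, which resembles a subunit of cytochrome c oxidase, and CG31668, whose start site was 3757 bp away. Its signal was 816, with 416 in replicate 2 and 400 in replicate 3. The highest but one, at chr3R:10082513-10082854, lay 654 bp upstream of lncRNA:CR45054, in the gap that separates it from the alkaline phosphatase gene Alp13. It had a signal of 654, with 398 and 257 in replicates 2 and 3. The next, at chr2R:22678135-22678623, lay 4662 bp upstream of lncRNA:CR44761, with Ppa, which encodes an F-box protein, on its other side. Its signal was 601, with 352 and 259 in replicates 2 and 3, so these peaks were near the top of both lists.

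The highest intergenic peak on X, at chrX:22432961-22433189, was 11128 bp upstream of CG14621. Its signal was 500, with 269 in replicate 2 and 232 in replicate 3. It was the single intergenic peak (0.385%) whose summit lay in an annotated transposable element, an insertion of the rover family, whereas 10.9% of eligible windows lay in one. How well reads can be placed in its short repeats cannot be read from peak lists, and its part in the signal was not tested.

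COX7AL2 was nearest to a peak of its own, 3328 bp upstream, with a signal of 490. A further peak 3609 bp upstream of lncRNA:CR45054 had a signal of 486 and held TATCGATA, the full site of the DNA replication-related element factor DREF. DNAlig3, which encodes a DNA ligase, had a peak 1286 bp upstream with a signal of 445. The genes on either side of that peak were Sol1 and Cyp9f2, 437 bp apart, and not DNAlig3. The peak 902 bp upstream of lncRNA:CR45643 had a signal of 417, and its nearest protein-coding gene was tara (taranis), a transcriptional coregulator known for its part in sleep.

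CG43245 was nearest to a peak of signal 416 that lay 31924 bp from its start site, in the wide gap that ends at NijA, a ninjurin adhesion protein gene. Gr93d, a gustatory receptor gene, had a peak 2561 bp upstream with a signal of 406, and the gene on one side of that gap was glec, which encodes gliolectin. The gene sp3 had a peak 541 bp upstream with a signal of 401, in a gap it shares with the homeobox gene C15. The sodium pump subunit genes nrv1 and nrv2 flanked a peak of signal 380, which lay 790 bp upstream of nrv1.

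Replicate 2 gave that nrv1 peak 219 and replicate 3 gave it 158. CG9498 and the sodium channel gene ppk7 flanked a peak of signal 364. CG13323 and Su(z)2, a Polycomb-group gene, flanked a peak of signal 344 that was 11981 bp from the nearest start site. The immunoglobulin-domain gene dpr20 had a peak 602 bp upstream with a signal of 340.

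The gene jp, for junctophilin, which ties the plasma membrane to the endoplasmic reticulum in muscle, had a peak 754 bp upstream with a signal of 324. Sesn, which encodes the stress-induced TOR inhibitor sestrin, had one 1302 bp upstream with 316, in the gap between asRNA:CR45326 and CG46429. CG14762 had one 656 bp upstream with 275. A peak of signal 259 lay between lncRNA:CR44588 and Rh5, a blue-sensitive rhodopsin gene of the eye, and Cyt-c1L, a cytochrome c1-like gene, had a peak 3375 bp upstream with 213.

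**Figure D2:**
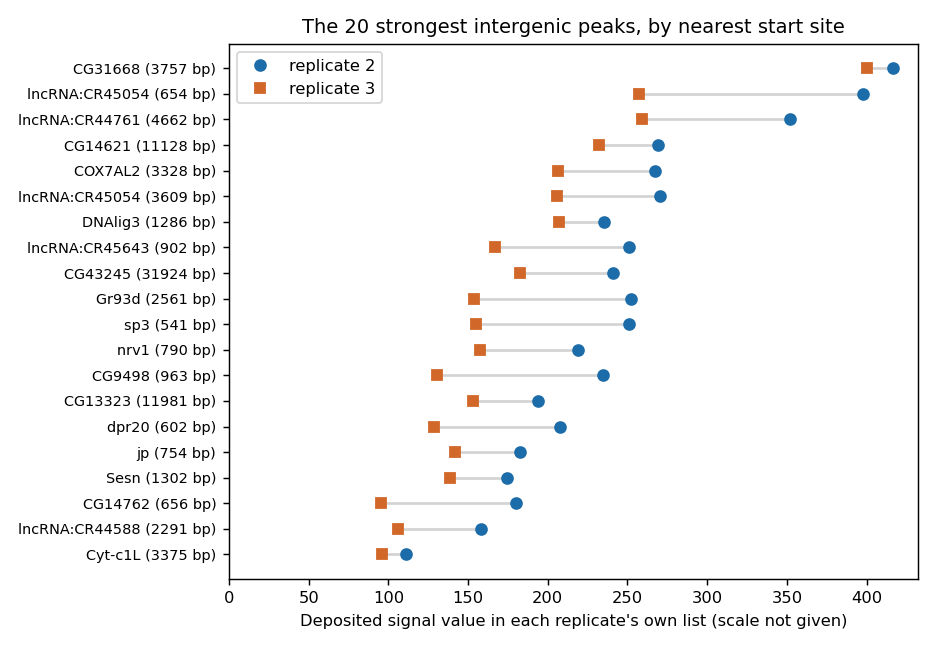
Signal in the authors' lists (horizontal axis, authors' units) of the 20 highest intergenic peaks, by nearest gene (vertical axis) and its distance in bp, in the separate lists of replicates 2 (circles) and 3 (squares). Every peak had a region in both replicates; the highest, near CG31668, had 416 in replicate 2 and 400 in replicate 3.

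Most intergenic peaks had the same width. Of the intergenic peaks, 231 were exactly 420 bp wide, and the others were 113 to 489 bp. The highest signal at a width of 420 bp was 195, and the lowest signal at another width was 146.

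Intergenic peaks lay closer to start sites than intergenic DNA in general. Their median distance was 1369 bp (quartiles 758 and 3485 bp), with the farthest at 34571 bp. The 180368 tiled windows of the genome that met the same rule, leaving out Y and gaps, had a median of 5883 bp. Within 2000 bp of a start site were 161 intergenic peaks (61.9%, 95% Wilson interval 55.9 to 67.6), beside 20.4% of those windows and 55.3% of intragenic peaks. By distance, 98 peaks lay within 1000 bp, 63 between 1000 and 2000 bp, 56 between 2000 and 5000 bp, 29 between 5000 and 10000 bp and 14 farther away.

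Just within the 500 bp line, 4 promoter peaks at 480 to 500 bp lay in no gene body, near dnt, CG2865, dac and Mkp3. Their signal ran from 66.0 to 115, with a median of 95.2. Just beyond that line, 15 intergenic peaks at 501 to 520 bp had a median of 90.8 and ran from 59.9 to 207. The 2 ranges overlap. The 15 included peaks near CrebA, a bZIP factor of secretory tissues, salm, a zinc-finger gene of wing and eye patterning, and for (foraging), a cGMP-dependent protein kinase.

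Most intergenic peaks were upstream of their nearest gene. There were 189 upstream (72.7%, interval 67.0 to 77.7), beside 58.8% of eligible windows. They lay between divergent genes in 83 cases (31.9%, interval 26.6 to 37.8; 20.4% of windows), between convergent genes in 47 (18.1%, interval 13.9 to 23.2; 25.6%) and between genes in the same direction in 130 (50%; 50.3%). The gap that held them had a median of 5886 bp, beside 19272 bp for windows, which a wide gap supplies in greater number. The windows were not matched for distance: 61.9% of peaks but 20.4% of windows lay within 2000 bp of a start site. How far the upstream and divergent shares follow from that nearness was not tested. The nearest gene was protein-coding for 187 peaks (71.9%; 66.8% of windows), a non-coding RNA for 66 (25.4%; 26.1%), a transfer RNA for 4, a pseudogene for 2 and a small nucleolar RNA for 1.

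The genes next to intergenic peaks often had a toe peak at their own promoter. The nearest protein-coding gene had one for 81 intergenic peaks (31.2%, interval 25.8 to 37.0), beside 11.3% of eligible windows, 47.8% of intragenic peaks and 19.3% of all protein-coding genes. These windows, too, were not matched to the peaks for distance from start sites. Another reproducible peak lay within 5000 bp of 126 intergenic summits (48.5%, interval 42.5 to 54.5), beside 56.0% for all peaks. Intergenic peaks overlapped another reproducible peak in 26 cases, so some of these pairs are parts of the same enriched stretch.

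By chromosome, 62 intergenic peaks were on 2L, 43 on 2R, 65 on 3L, 61 on 3R, 4 on the fourth chromosome, 25 on X and 0 on Y. X held 9.62% (interval 6.60 to 13.8), beside 16.7% of all peaks and 13.6% of eligible windows. 2L held 23.8% (interval 19.1 to 29.4), beside 18.2% of all peaks and 17.2% of windows. Of the toe peaks on X, 4.31% were intergenic, and of those on 2L, 9.84%. The 0 peaks on Y allow a share of up to 1.15% (3 counts of the total), where 6.44% of eligible windows were on Y. Of all 3469 reproducible peaks 0 were on Y, so this is not particular to intergenic peaks. The window shares by chromosome count Y and gaps.

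Repeats were scarcer at summits of every class than in eligible windows. Soft-masked letters, which the assembly marks as repeats, made up 17.7% of the windows at intergenic summits, 19.6% at intragenic and 20.2% at promoter summits, and 26.8% of eligible windows. They filled over 50% of the window at 6 intergenic peaks (2.31%, interval 1.06 to 4.94), beside 15.9% of eligible windows. G and C made up 39.4% of the letters at intergenic summits, 40.8% in eligible windows, 38.3% at intragenic and 37.1% at promoter summits.

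The CTCF core AGNNGGCGC was found within 100 bp of 24 intergenic summits (9.23%, 95% Wilson interval 6.28 to 13.4). It was found at 4.57% of intragenic summits (interval 3.39 to 6.11), 2.36% of promoter summits and 1.28% of eligible windows. The motif had been searched because CTCF is an insulator protein. It was singled out, after the values had been seen, because words from it led a count of 7-letter words. Among the 516 of 8192 words found in at least 15 windows, GCGCCAC, the reverse complement of GTGGCGC, stood first by ratio to the genome, at 26 windows (10%) against 1.64% of eligible windows. Most matches used the same letters at the free positions: AGGTGGCGC occurred 16 times, AGATGGCGC 14 times, AGTGGGCGC 3 times and AGCTGGCGC 2 times, and 22 windows held either of the commonest forms, as in the jp and Sox21a lines printed above.

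The core was gathered at the summits. Within 50 bp of a summit it occurred 23 times, with 12 more in the next 100 bp on the left and 4 on the right, beside 4 times at 150 to 250 bp, counted on both sides and so over about 2 times the length, and 29 times at 500 to 1000 bp, a span 10 times as wide as the central stretch. Of the 24 peaks, 17 were above the median signal of the intergenic peaks and 7 below it. Their median signal was 105, beside 81.7 for intergenic peaks without the core, and their quartiles were 81.5 and 138.

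No pair of the 24 peaks with the core lay within 5000 bp of each other. There were 6 on 2L, 6 on 2R, 5 on 3L, 6 on 3R and 1 on X. Their median distance to a start site was 1464 bp, close to that of all intergenic peaks. The strongest were near jp (324), CG14762 (275), the transcript near soti (200.0) and Sid (195), the gene of a stress-induced DNase. Others lay near CG15282 (186), CycB (181), which encodes cyclin B, CG44439 (124) and Sox21a (120), a Sox factor of the intestinal stem cell lineage.

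**Figure D3:**
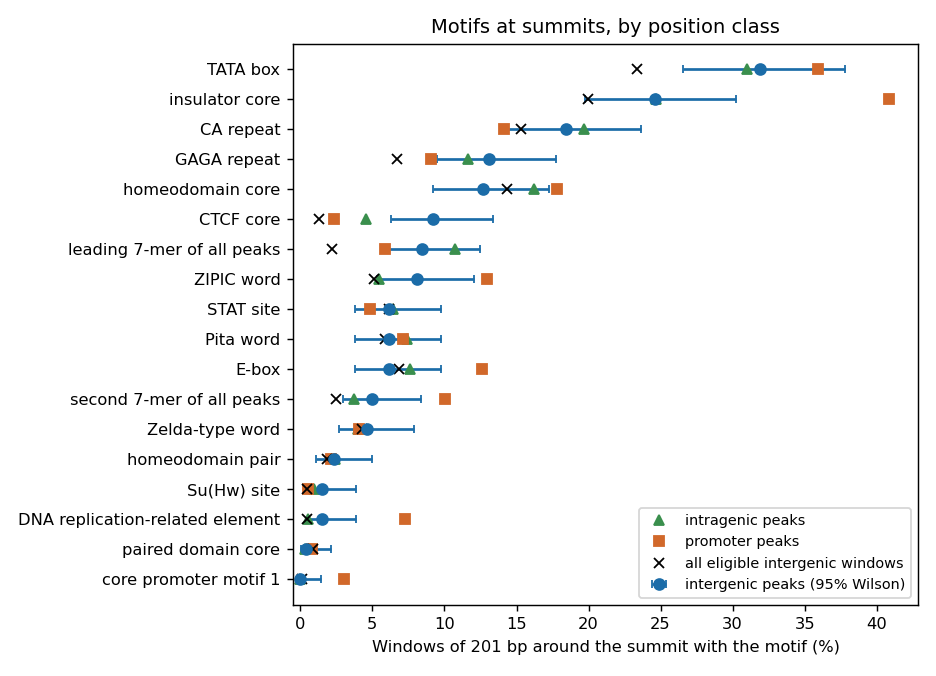
Percent of windows, 100 bp either side of the summit, that hold each motif (horizontal axis; motifs on the vertical axis) at intergenic, intragenic and promoter summits and in eligible intergenic windows of the genome; error bars on intergenic peaks are 95% Wilson intervals. The CTCF core stands at 9.23% of intergenic summits and 1.28% of eligible windows, and ACAGTGG, named there as the leading 7-mer of all peaks, at 8.46% and 2.19%.

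Intergenic peaks with the CTCF core were lower in replicate 3 than in replicate 2 at all 23 that had a region in both. The lists' scales differ, and most peaks were lower there. Replicate 3 was higher at 58 of 247 intergenic peaks and at 724 of 3323 of all peaks. The median log2 ratio of replicate 3 to replicate 2 was -1.01 at these 23 peaks and -0.38 at the 224 intergenic peaks without the core. At the jp peak the signals were 182 in replicate 2 and 142 in replicate 3, at the CG14762 peak 180 and 95.4, at the peak near soti 149 and 49.5, and at the Sid peak 140 and 53.2. Lower ratios were also seen with other motifs: the median was -0.80 at 15 intergenic peaks with TAGCNNAG, -1.05 at 4 with the Su(Hw) motif and -0.74 at 6 with the paired-homeodomain palindrome, so the fall is not shown to be particular to the CTCF core. These sets share some peaks with the CTCF set. The CG15282 peak held the Su(Hw) motif and the CTCF core, and the CG10232 and RabGGTa peaks held TAGCNNAG and the CTCF core. Of the 16 peaks with TAGCNNAG, replicate 2 placed 15 among its strongest 3469 regions and replicate 3 placed 8. Of the peaks with the CTCF core, replicate 2 placed 23 of the 24 among its strongest 3469 regions and replicate 3 placed 12, whereas the shares for the other intergenic peaks were 75% and 70.8%. Intragenic peaks with the core had a median of -0.59 (without it -0.31) and promoter peaks -0.53 (without it -0.50), so the gap was widest at intergenic peaks. The ratio was looked at after the values had been seen, and with 1 library on each side what differs between the libraries cannot be told apart.

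The share of intergenic regions with the core was higher in replicate 2 than in replicate 3, with intervals that overlap. Among the strongest 3469 regions of replicate 2, 224 were intergenic and 28 of these held it (12.5%, interval 8.79 to 17.5). In replicate 3, 235 were intergenic and 16 held it (6.81%, interval 4.23 to 10.8). Intragenic regions held it at 4.40% in replicate 2 and 2.79% in replicate 3, and promoter regions at 2.88% and 2.17%. The intergenic share was the highest of the 3 classes in each library.

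**Figure D4:**
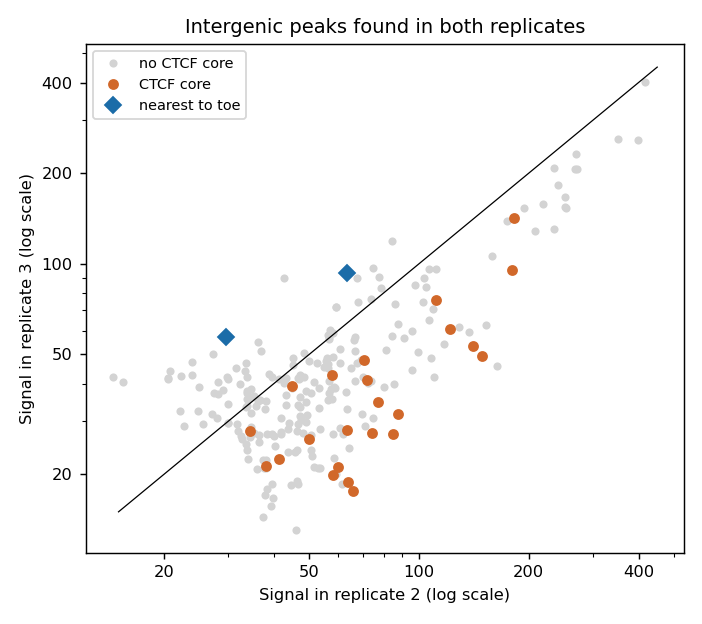
Signal in replicate 3 (vertical axis, log scale) against signal in replicate 2 (horizontal axis, log scale) for the 247 intergenic peaks found in both, in the authors' units; the line marks equal values. All 23 peaks with the CTCF core lie below the line, and both peaks nearest to toe lie above it. Of the 247 peaks, 58 lie above the line.

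ACAGTGG was found at 22 intergenic summits (8.46%, interval 5.65 to 12.5), beside 10.8% of intragenic summits, 5.90% of promoter summits and 2.19% of eligible windows. No label or file names a protein for this word. It occurred 13 times within 50 bp of a summit, 12 times at 150 to 250 bp and 42 times at 500 to 1000 bp. Its 22 peaks were split evenly between the stronger and the weaker intergenic peaks (11 each), and their median log2 ratio of replicate 3 to replicate 2 was -0.42, beside -0.44 at intergenic peaks without it. Besides the lines printed above, it lay at peaks near CycB, Kr-h1, a juvenile hormone response factor, Atf3, a bZIP stress factor, and ph-d, a Polycomb-group gene. Only 3 intergenic peaks held both this word and the CTCF core: those near CG15282, CycB and Sqor.

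**Figure D5:**
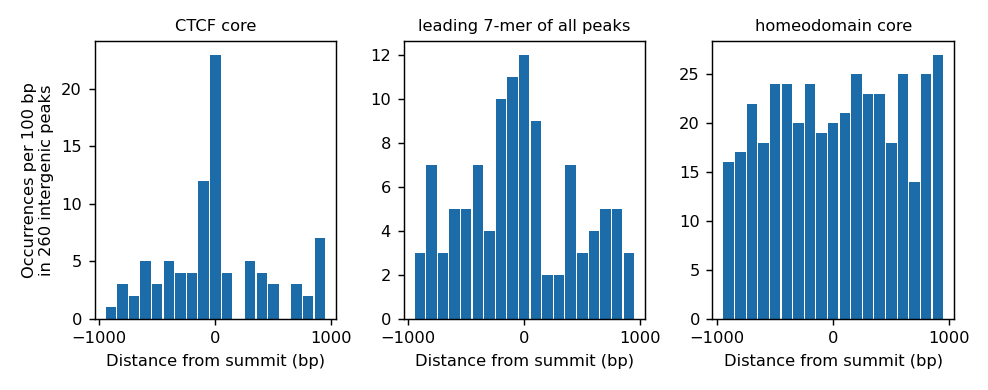
Number of motif occurrences (vertical axis) in bins of 100 bp by distance from the summit in bp (horizontal axis) over the 260 intergenic peaks. The CTCF core has 23 occurrences in the central bin, 12 in the bin to its left and 4 in the bin to its right. ACAGTGG, named as the leading 7-mer of all peaks, has 12, 11 and 9, and the homeodomain core TAATTA has 20, 19 and 21.

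GAGAGA lay at 34 intergenic summits (13.1%, interval 9.51 to 17.7), beside 11.6% of intragenic summits, 9.09% of promoter summits and 6.68% of eligible windows. It had no concentration at the summit: 31 occurrences lay within 50 bp and 84 over the longer stretch at 150 to 250 bp. CACACA, a simple repeat, lay at 48 (18.5%), beside 15.3% of windows. The homeodomain core TAATTA lay at 33 (12.7%, interval 9.18 to 17.3), beside 16.2% of intragenic summits, 17.8% of promoter summits and 14.3% of windows, so the windows' share falls inside the interval. The palindrome that paired-class homeodomains bind as dimers, TAAT and ATTA set 3 bases apart, which can overlap TAATTA, lay at 6 (2.31%), beside 1.87% of windows. GTCACGC, letters from the binding site of Pax paired domains, lay at 1 (0.385%), beside 0.879% of windows.

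Both CGATA and the longer TATCGATA were scarcer than at promoter peaks, as they also were at intragenic peaks. CGATA, the core that the insulator protein BEAF-32 binds, also near promoters, lay at 64 intergenic summits (24.6%, interval 19.8 to 30.2), beside 40.8% of promoter summits and 19.98% of eligible windows. TATCGATA, which contains CGATA, lay at 4 (1.54%, interval 0.600 to 3.89), beside 7.25% of promoter summits and 0.447% of windows. These 4 peaks were near lncRNA:CR45054, CG13577, ey and Haspin. GGTCACACT, the site of the promoter factor M1BP, lay at 0 of 260, which allows a share of up to 1.15%, beside 3.06% of promoter summits. TATAAA lay at 83 (31.9%, interval 26.6 to 37.8), beside 35.9% of promoter summits, which lies inside the interval, and 23.3% of windows. Intragenic summits held CGATA at 24.7%, TATCGATA at 0.543%, GGTCACACT at 0 of 920 and TATAAA at 31.0%.

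The remaining motifs were set beside the windows in the same way. AGTGTTG, named in the motif plot as the second 7-mer of all peaks, lay at 13 (5%, interval 2.95 to 8.37; 2.50% of windows), and AGGGNTG, letters from the site of the insulator protein ZIPIC, at 21 (8.08%, interval 5.34 to 12.0; 5.15%), so the windows' share lay below both intervals. The windows' share lay inside the interval for the next 4 motifs. The E-box CAGCTG lay at 16 (6.15%; 6.88%), the STAT site TTCNNNGAA at 16 (6.15%; 6.13%), TAGCNNAG, from the site of the insulator protein Pita, at 16 (6.15%; 5.88%) and the Zelda site CAGGTA at 12 (4.62%; 4.30%). The Su(Hw) motif lay at 4 (1.54%, interval 0.600 to 3.89; 0.450%), near CG15282, Zasp52, Pk34A and Jhbp2. None of the 18 motifs lay at 36 intergenic peaks.

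The intergenic peaks fell into 222 clusters when summits within 5000 bp were joined, and 59 peaks shared 21 of them. The largest held 9 peaks over chr2L:12003508-12012560, around Hacd1, a fatty acid elongation enzyme gene, Rh5 and lncRNA:CR44588. Their signals, in order along the chromosome, were 67.8, 84.7, 191, 85.3, 163, 96.3, 259, 109 and 115. Every reproducible peak in that span was intergenic. Of the 7 with a region in both replicates, 2 were higher in replicate 3, and neighbours that overlap can be read against the same replicate region.

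Clusters of 4 held some of the highest peaks. Around CG31668 and COX7AL2 the signals were 100.6, 490, 816 and 74.8. Upstream of lncRNA:CR45054 they were 486, 80.0, 118 and 654, and upstream of lncRNA:CR44761 they were 132, 65.9, 601 and 173. The last pair of these are separate summits of the same called region. Around lncRNA:CR45643 and tara they were 67.9, 417, 114 and 59.5. Each cluster thus had 1 or 2 peaks several times higher than their neighbours.

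The gap upstream of toe, which ends at eyg, held 2 intergenic peaks, and none had eyg as its nearest gene. The peak at chr3L:12434577-12434996, 2119 bp upstream of toe, had a signal of 160, with 63.6 in replicate 2 and 93.2 in replicate 3. The peak at chr3L:12433785-12434204, 1327 bp upstream, had a signal of 83.0, with 29.5 and 57.3. Both were higher in replicate 3, as were 58 of the 247 intergenic peaks with both values. The farther peak held TAATTA and the nearer held ACAGTGG.

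Counts of intergenic peaks nearest to listed genes of eye development and patterning were small, though their shares were not always below those of windows. Genes outside the lists, such as salm, were not counted. A peak was given to its nearest gene of any kind, in lists chosen with earlier results of these data known. Of 13 retinal determination genes, toe with 2 peaks and ey with 1 were nearest genes, making 3 of 260 peaks (1.15%), beside 0.210% of eligible windows and 0.326% of intragenic peaks. The gene ey encodes the Pax6 factor that starts eye development, and its peak on the fourth chromosome, 739 bp upstream, had a signal of 99.8, with 58.3 and 38.9 in replicates 2 and 3. Of 63 homeobox genes matched, 3 had an intergenic peak (1.15% of peaks, beside 1.28% of windows and 0.435% of intragenic peaks). They were mirr, an Iroquois-class gene of the dorsal eye (103), Dll, the limb gene Distal-less (95.8), and ct, the sensory organ gene cut (58.9). A further peak (90.4), nearest to lncRNA:CR44032, had the homeobox gene C15 as its nearest protein-coding gene and is not in that count.

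Of 63 other patterning transcription factor genes matched, 4 had an intergenic peak (1.54% of peaks, beside 0.840% of windows and 1.74% of intragenic peaks). They were Sox21a (120), fru (72.3), the fruitless gene of male courtship, the nuclear receptor gene Hr38 (63.8) and chinmo (59.1), a gene of neuronal timing and of male identity in the testis. The listed gene h (hairy) went unmatched because the annotation names it hry. A further peak (71.1), 2042 bp from the start site of hry, is therefore not in that count or share. Of 46 signalling genes matched, Wnt4 alone had one (84.2), or 0.385% of peaks, beside 0.554% of windows and 0.978% of intragenic peaks. Of 28 immune genes matched, PGRP-SA alone had one (172), or 0.385% of peaks, beside 0.0560% of windows and 0.109% of intragenic peaks. The PGRP-SA peak lay 1091 bp upstream of the gene of this recognition protein of the Toll pathway, with 107 in replicate 2 and 65.1 in replicate 3.

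Of 36 metabolic and stress genes, foxo alone had intergenic peaks. It had 2, or 0.769% of peaks, beside 0.0926% of windows and 0.326% of intragenic peaks. The 2 foxo peaks lay 3324 and 4592 bp upstream of this insulin-responsive factor's gene, with signals of 127 and 124. Replicate 2 gave them 80.1 and 70.3, and replicate 3 gave them 39.1 and 42.0. No intergenic peak was nearest to any of 38 neuropeptide and neural receptor genes matched, beside 0.226% of windows and 0.109% of intragenic peaks. These counts are 0 to 4 peaks a list, so their shares carry wide intervals, such as 0.393 to 3.34% for the retinal determination genes.

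The most remote intergenic peaks, more than 10000 bp from any start site, numbered 14. Among them, CG43245 was nearest to 3 peaks, at 15596, 31924 and 34571 bp, and Su(z)2 to 2, at 12154 and 18196 bp. The farthest, with a signal of 76.2, had a region in replicate 3 (65.5) and none in replicate 2. Others lay near CG10651 (198), Zasp52 (94.8), a muscle Z-disc gene, and r-cup (70.3). The highest of the 14 was the CG14621 peak and the lowest a Su(z)2 peak (61.2).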

How the data were processed

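Deposited peak lists on dm6 were used: the reproducible list, the pooled list and a list for each of replicates 2 and 3. Per the files' notes, the authors called regions against a control and derived the reproducible list by the irreproducible discovery rate; neither aligner nor caller is stated in the sources used here. The signal of each region and the −log10 q-value (a column identified from the usual layout) are the authors' deposited values; no header names them. Lists on dm3 were not used. Read counts are not in these lists, so depth is unknown.

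Annotation was Ensembl release 115 (BDGP 6.54); transposable elements were left out. Sequence came from RefSeq's copy of dm6. Motifs were searched 100 bp either side of summits and in all tiled windows of that length meeting the positional rule (the eligible windows). The members, gene lists and motifs were chosen with earlier results of these data known. Genes named were those of the 20 highest peaks, of the lists, of toe and eyg, of peaks next to the 500 bp line and of the largest cluster; others were named after their values were seen. Symbols cut, rx, h, WntD, Dl, os, EGFR, hug, IM1, IM2 and IM4 matched no gene. Position and motif routines were tested on simulated data. Python 3.11.15, NumPy 2.4.6, pandas 2.3.3 and SciPy 1.17.1 were used. Alternatives covered the distance from start sites, annotation, window, strength and each replicate alone.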

Additional observations from a re-analysis of the deposited data

How the results depend on the processing

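Of 118 values recomputed under alternatives, 89 stayed within the spread used for comparison and 29 moved. With 1000 bp in place of 500 bp there were 162 intergenic peaks (4.67%), their median distance was 2823 bp and 38.9% lay within 2000 bp. With 200 bp there were 513 (14.8%), with a median distance of 504 bp, 80.7% within 2000 bp, a median signal of 92.3, 59.6% among the strongest of both replicates and TAATTA at 17.9%. With protein-coding genes only, the share was 9.89%, the median distance 2381 bp and 44.6% lay within 2000 bp. Among peaks above the median signal of all peaks the intergenic share was 5.25%, X held 6.59%, TAATTA was at 8.79% and the CTCF core at 14.3%. Windows of 50 bp either side gave ACAGTGG 4.62%, CGATA 11.9%, GAGAGA 5.38% and TAATTA 6.15%; 200 bp gave CGATA 45.4%, GAGAGA 21.9% and TAATTA 24.6%, since wider windows hold more letters. Replicate agreement was 0.72 by Pearson's r and 0.53 by Spearman's rho, across peaks already chosen as reproducible between the same replicates.

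Each replicate alone gave 224 to 235 intergenic regions, 6.46 to 6.77% of the strongest 3469; the CTCF core was at 12.5% without replicate 3 and 6.81% without replicate 2. The CTCF alternatives and replicate ratios were added after seeing the data. No paired analysis was possible because there is 1 group. With 2 libraries and unknown depth, intervals cover counting only, and a region missing from a replicate list is not shown to be unbound.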
